A study of Mus musculus with 2 samples.

Results

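The genes described here are those of endosomal sorting and of SNARE membrane fusion, chosen by name alone: every gene of the deposited expression table whose symbol begins with Vps, Snx, Chmp, Stx or Vamp followed by a digit, or with Vti1. The table held 10402 gene symbols, and 87 of them matched. They fell into 4 retromer genes, 28 sorting nexins, 16 ESCRT genes, 19 SNARE genes and 20 further Vps genes, most of them subunits of tethering complexes or lipid transfer proteins. RNA was sequenced from peritoneal macrophages of mice labelled ECM1-sufficient or ECM1-deficient, elicited with ThG, as the labels abbreviate it, and collected 3 days later. Both groups were elicited alike, labelled lps- and left without further activation. ECM1 is extracellular matrix protein 1, a secreted glycoprotein, and how the deficiency was made, the strain, the age and the sex of the mice and whether mice were pooled are not given in the sources used here. Each genotype had 1 library, so there is no replicate spread, no difference could be tested, and every statement below compares a pair of libraries.

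Cargo that a macrophage takes up passes through endosomes, where it is either recycled or sent on to lysosomes. Retromer and sorting nexins coat and tubulate the endosomal membrane and carry receptors back to the Golgi or the cell surface. The ESCRT machinery buds ubiquitinated cargo into multivesicular bodies on its way to degradation. Tethering complexes then bring vesicles to their target, and SNARE proteins, of which R-SNAREs (VAMPs) pair with Q-SNAREs (syntaxins and Vti1 among them), zip together to fuse the membranes. In macrophages the same steps serve phagosome maturation, antigen processing and cytokine secretion.

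Values are FPKM, which counts fragments relative to transcript length and to the mapped fragments of the library, as the authors deposited them, and each pair is given with the ECM1-sufficient library first. The difference is the log2(FPKM + 1) of a gene with ECM1 deficient minus its value with ECM1 sufficient, and a gene counts as higher or lower where this reaches 1 in size, which is 2-fold in FPKM + 1. Values were higher in the ECM1-deficient library for most genes of the table. Over the 7329 genes that reached 1 FPKM in each library the median ratio was 1.73, or 0.79 on the log2 scale, and a difference computed after removing that common ratio is called the relative difference. Ratios of FPKM are given without the added 1.

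As a check of the labels, Ecm1 was at 5.63 and 1.02 FPKM, lower in the library labelled ECM1-deficient. All 12 macrophage markers of the list used here had values. Of these, 5 were higher and 1 lower, or 41.7% and 8.33%, against 14.8% and 2.17% of all genes. Among the higher were Adgre1, which encodes F4/80, at 31.0 and 64.7 FPKM and Csf1r at 7.70 and 18.9 FPKM. Csf1r encodes the receptor for macrophage colony-stimulating factor. Among those within 2-fold were Cd68 at 401 and 689 FPKM, Ctss at 3305 and 4856 FPKM and Tyrobp at 1386 and 1399 FPKM. Lyz2 stood apart at 2774 and 5.44 FPKM. Of 6 genes listed for large peritoneal macrophages, 3 had values. Gata6 was at 2.15 and 3.46 FPKM, Cxcl13 at 0.434 and 3.26 FPKM and Icam2 at 0 and 0.589 FPKM. Of the markers of other cells, 0 of 5 T and NK cell genes, 1 of 5 neutrophil genes, 2 of 4 B cell genes, 4 of 6 mast cell and eosinophil genes and 4 of 6 mesothelial and fibroblast genes were in the table. Their summed levels were 4.98 and 3.69 FPKM for neutrophils, 1.51 and 3.92 FPKM for B cells, 1.80 and 3.97 FPKM for mast cells and eosinophils and 27.3 and 46.6 FPKM for mesothelial cells and fibroblasts. Their part in the differences below was not tested, and in bulk RNA fewer cells of a type and less RNA per cell cannot be told apart. Sequencing depth is unknown.

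The sorting and SNARE genes moved, as a whole, with the rest of the table. Of the 87 genes, 86 reached 1 FPKM in one library or both and were kept, and Snx21 was not. Vps33b and Vps9d1 passed that minimum in the ECM1-deficient library only. Of the 86, 9 were higher, 1 was lower and 76 were within 2-fold. That is 10.5% higher, against 14.8% of all 9032 genes kept, and 1.16% lower, against 2.17% of all genes. Counts of single groups below are to be read beside these shares of all genes. Over the 8521 kept genes with 3 or more exons the shares were 14.6% higher and 1.22% lower. The 1 lower gene of the 86, Chmp1b, has 1 exon and so lies outside that set. On the relative scale 2 were higher, Snx10 and Snx12, and 2 lower, Chmp1b and Chmp2b, against 2.45% and 4.77% of all genes. The median difference of the 86 was 0.71, against 0.61 for all genes, and their median relative difference was 0.02, against 0.03. By the ratio of FPKM, without the added 1, 27 of the 87 genes were past 2-fold upwards, or 31.0% against 34.8% of all genes.

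The spread of the differences among these genes was close to that of genes with 3 or more exons. Chmp1b, with 1 exon, and Snx33, with 2, are counted in. The SD of the differences was 0.49 on the log2 scale, against 0.53 over genes with 3 or more exons. It was 0.68 over all genes kept, where genes with 1 exon had an SD of 2.52. A difference above 0 was found for 79 of the 86, and for 8172 of all 9032 genes kept. The summed FPKM of the 87 genes was 979 with ECM1 and 1614 without, a ratio of 1.65, while the sum over the whole table had a ratio of 1.37. Gene by gene, however, the median ratio was 1.76 over the 86 genes and 1.78 over all genes kept. The order of levels was similar in both libraries, with a Spearman correlation of 0.89 over the 86 genes, given as a description because both libraries share the same gene models and lengths. Vamp8, Chmp2a and Snx5 were the 3 most abundant in each library.

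**Figure D1:**
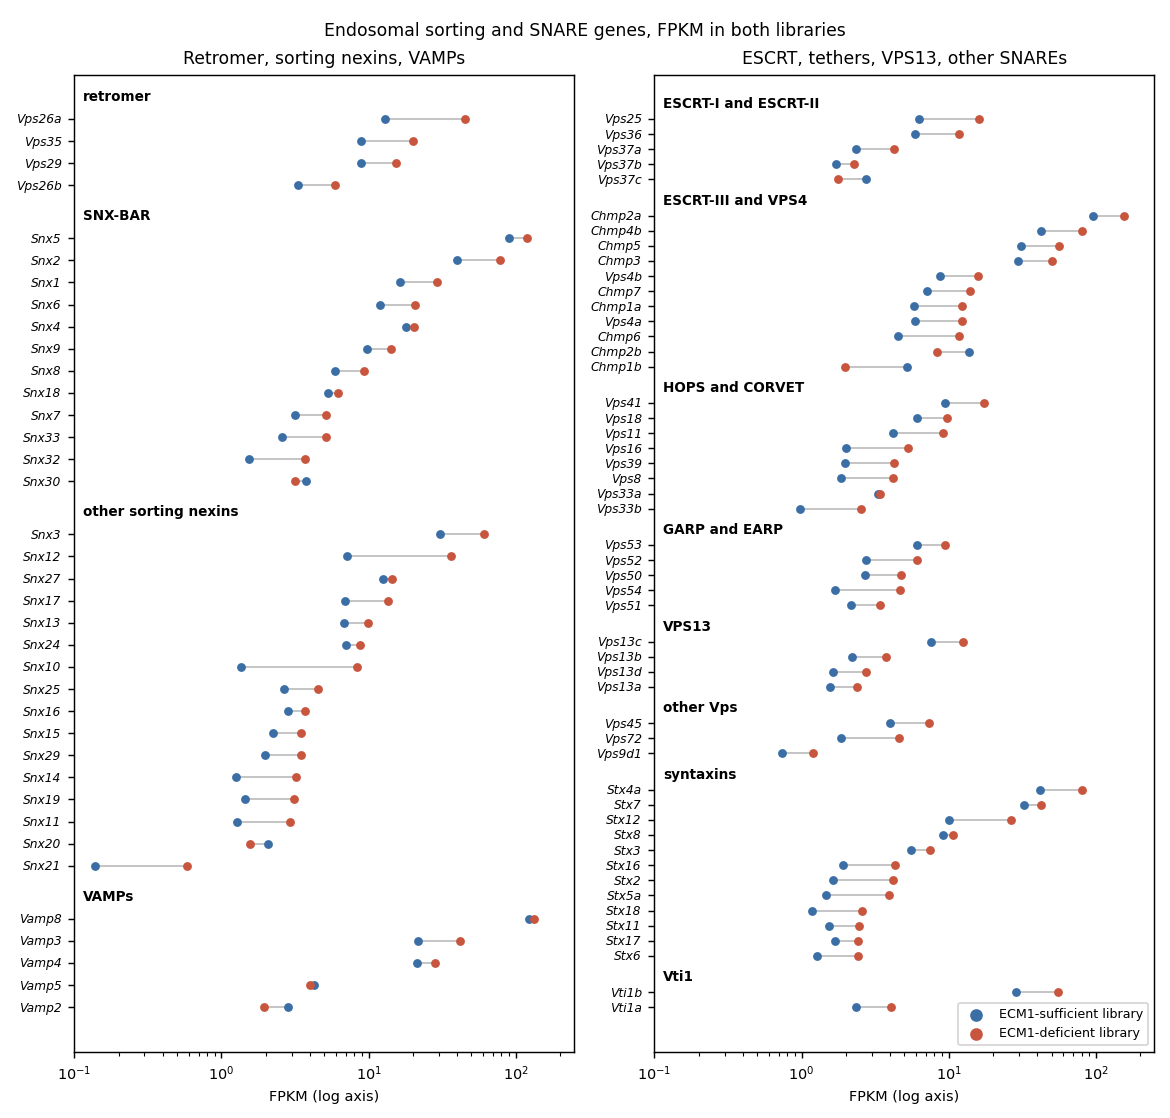
FPKM (log axis) of each of the 87 genes in the ECM1-sufficient (blue) and ECM1-deficient (red) library, grouped by complex or family and sorted by the ECM1-deficient value. Most red points lie to the right of the blue ones, while Chmp1b, Chmp2b, Vps37c, Vamp2, Vamp5, Snx20 and Snx30 lie the other way, and Snx10 and Snx12 have the widest gaps to the right among the genes kept.

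Retromer had the highest ratio of summed FPKM of the 5 groups, 34.0 against 86.5 FPKM, or 2.54. All 4 genes of the complex were above the median gene, as were 54.3% of all genes kept. Of the 4, 2 passed 2-fold upwards, beside 14.8% of all genes kept. Vps26a, an arrestin-like subunit that binds the membrane-bound sorting nexins, lies on chromosome 10 from 62454843 to 62486805 (GRCm38). It was at 13.0 and 45.1 FPKM, a ratio of 3.47, with a difference of 1.72 and a relative difference of 0.97. By the size of its difference it ranked 174 of 9032 genes from the top. Vps35, the scaffold of the complex, was at 8.83 and 20.1 FPKM, a difference of 1.10 and a relative difference of 0.37. The gene for its partner Vps29 was at 8.82 and 15.3 FPKM, with a relative difference of 0.01. Vps26b, the paralog of Vps26a, was at 3.34 and 5.96 FPKM, with a relative difference of 0.04. Vps26a and Vps35 were thus above the common ratio and Vps29 and Vps26b close to it.

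The level of Vps26a was therefore a larger part of its family in the ECM1-deficient library. Vps26a made up 79.6% of the summed FPKM of Vps26a and Vps26b with ECM1 sufficient and 88.3% with ECM1 deficient. A share of this kind does not change when a library is rescaled as a whole. In the ECM1-sufficient library Vps26a, Vps35 and Vps29 lay between 8.82 and 13.0 FPKM, and in the ECM1-deficient library Vps26a was at 45.1 FPKM beside 20.1 for Vps35 and 15.3 for Vps29. The Vps35 locus overlaps Orc6, a gene of DNA replication, on the opposite strand. Orc6 was at 2.32 and 2.41 FPKM, and whether reads were assigned by strand is not given in the sources used here.

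The promoter of Vps26a carries the palindrome TCACGTGA, an extended E-box of the kind bound by basic helix-loop-helix factors such as TFEB, which acts on lysosomal genes. It is shown because Vps26a was the retromer gene furthest from the common ratio and because the word occurs in few promoters. RefSeq promoters (GRCm38.p6, 250 bases before to 50 after a gene's start) were matched for 63 of the 87 genes, and 4 of these, or 6.35%, held TCACGTGA, against 2.56% of 6999 kept genes and 1.12% of all 27025 genes with a promoter. Stretches around each match follow, in the direction of transcription, with TCACGTGA in capitals.
Vps26a, chr10:62486951-62487018, minus strand, first base of the match at -183 from the start: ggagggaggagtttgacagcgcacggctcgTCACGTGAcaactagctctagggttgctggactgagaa
Vps26a, chr10:62486713-62486780, minus strand, at -152 from a second annotated start: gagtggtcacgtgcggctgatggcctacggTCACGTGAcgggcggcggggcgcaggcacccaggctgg
Vps16, chr2:130424271-130424338, plus strand, at -19: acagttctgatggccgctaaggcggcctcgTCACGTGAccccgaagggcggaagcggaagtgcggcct
Vps33a, chr5:123573007-123573074, minus strand, at -29 and again at -13: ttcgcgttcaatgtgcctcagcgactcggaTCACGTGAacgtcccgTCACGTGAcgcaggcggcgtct
Stx6, chr1:155158587-155158654, plus strand, at -86: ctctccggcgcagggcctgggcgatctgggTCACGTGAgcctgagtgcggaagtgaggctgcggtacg

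The 4 genes with this word differed among themselves. Vps26a and Vps16 were among those past 2-fold, with differences of 1.72 and 1.07. Stx6 had a difference of 0.59, close to the median of all genes, and Vps33a, with a pair of matches, had 0.05, one of the lowest among these genes. Over all 179 kept genes whose promoter held TCACGTGA the median difference was 0.65, beside 0.61 for all genes kept. The shorter E-box CACGTG, which TCACGTGA contains, was in 14.3% of the 63 promoters and 12.8% of those of the genes kept. A match is a description of the letters and not of binding.

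The SNX-BAR sorting nexins, which bend membranes into tubules, had 0 of 12 genes past 2-fold, with a median difference of 0.57. Snx5 was the most abundant sorting nexin at 90.6 and 119.8 FPKM, with a relative difference of -0.38. Snx2 was at 40.1 and 77.8 FPKM and Snx1 at 16.4 and 29.1 FPKM. Snx6, which like Snx5 pairs with Snx1 or Snx2, was at 11.9 and 20.7 FPKM. Its relative Snx32 was at 1.54 and 3.72 FPKM, a ratio of 2.41 that lies within 2-fold in FPKM + 1. The Snx32 locus overlaps Cfl1 on the opposite strand. Cfl1 was at 156 and 456 FPKM, and its part in the value of Snx32 was not tested. Within these tubulating pairs the makeup was nearly constant: Snx2 held 70.9% and 72.8% of Snx1 plus Snx2, and Snx5 held 87.0% and 83.1% of Snx5, Snx6 and Snx32.

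Other SNX-BAR genes lay on both sides of the median gene. Snx4, which acts in recycling, was at 18.1 and 20.4 FPKM and its partners Snx7 and Snx30 at 3.18 and 5.16 FPKM and at 3.76 and 3.15 FPKM. Snx30 was the only SNX-BAR gene with a lower value in the ECM1-deficient library, a relative difference of -0.81. The endocytic members Snx9, Snx18 and Snx33, which carry an SH3 domain, were at 9.73 and 14.3 FPKM, at 5.26 and 6.22 FPKM and at 2.57 and 5.10 FPKM, and Snx8 was at 5.89 and 9.30 FPKM. Of the 12, 5 were above the median gene and 7 below it, or 41.7% above beside 54.3% of all genes kept.

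Among the other sorting nexins, Snx12 and Snx10 stood apart from the rest of the family. Snx12, a small protein made almost only of the phosphoinositide-binding PX domain, lies on chromosome X from 101097786 to 101222563. It was at 7.18 and 36.2 FPKM, a ratio of 5.04, with a difference of 2.19, rank 86 of 9032 genes from the top, and a relative difference of 1.45. Snx10, a sorting nexin known for its role in osteoclasts, the bone-resorbing relatives of macrophages, lies on chromosome 6 from 51523901 to 51590679. It was at 1.36 and 8.34 FPKM, a ratio of 6.12, with a difference of 1.98 and a relative difference of 1.40. These are the 2 genes of the 86 that passed 2-fold upwards on the relative scale, and with FPKM rescaled to equal sums they remained at 1.77 and 1.65. Neither locus overlaps another protein-coding gene.

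The promoters of both genes are shown because no other sorting nexin reached such a difference. In both the capitals mark CCGGAAGT, the motif of ETS factors of the GABPA kind, CCAAT, the motif of NF-Y, and the GC box GGGCGG, each on either strand. That of Snx12 holds all 3, and that of Snx10, at the annotated start nearest to that of the deposited locus, holds CCAAT and GGGCGG.
Snx12, chrX:101222514-101222813, minus strand: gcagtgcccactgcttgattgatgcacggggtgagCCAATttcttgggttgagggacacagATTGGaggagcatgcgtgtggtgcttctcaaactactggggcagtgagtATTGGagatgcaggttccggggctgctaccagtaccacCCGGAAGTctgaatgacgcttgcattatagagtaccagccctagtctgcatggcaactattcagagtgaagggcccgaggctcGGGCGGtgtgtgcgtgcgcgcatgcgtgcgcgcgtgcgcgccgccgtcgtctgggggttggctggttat
Snx10, chr6:51523653-51523952, plus strand: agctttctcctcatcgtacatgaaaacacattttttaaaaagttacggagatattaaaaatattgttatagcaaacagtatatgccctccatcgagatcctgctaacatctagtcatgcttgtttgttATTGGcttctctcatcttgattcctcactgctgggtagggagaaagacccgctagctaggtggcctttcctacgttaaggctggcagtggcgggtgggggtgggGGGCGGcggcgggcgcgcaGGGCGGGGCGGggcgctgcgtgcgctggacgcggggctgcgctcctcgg

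These motifs were common among all promoters. CCGGAAGT was in 9.52% of the 63 promoters against 10.6% of those of genes kept, CCAAT in 34.9% against 42.6%, and GGGCGG in 73.0% against 70.8%. GAGGAAGT, a form of the PU.1 motif, was in 1 of the 63, that of Snx8, and TGANTCA, the AP-1 motif, in 4, those of Snx10, Snx29, Vps13d and Vps37c. For Snx10 the match lies in the promoter of another annotated start, not in the stretch printed above. Shares over the genes kept were 4.04% for GAGGAAGT and 6.27% for TGANTCA. All 7 motifs were searched on both strands.

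Snx3, the closest relative of Snx12 and an adaptor that brings retromer to endosomes, was at 30.4 and 60.9 FPKM. Its relative difference was 0.21, so the pair differed mostly through Snx12, which went from 7.18 FPKM beside 30.4 for Snx3 to 36.2 FPKM beside 60.9. Snx27, whose PDZ domain links cargo to retromer, was nearly level at 12.5 and 14.4 FPKM, with a relative difference of -0.54. Snx17, the adaptor of the related retriever complex, was at 6.87 and 13.6 FPKM, a relative difference of 0.18. The adaptors of the recycling complexes thus lay on both sides of the median gene.

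The sorting nexins with an RGS or PXA domain, Snx13, Snx14, Snx19 and Snx25, were at 6.84 and 9.98 FPKM, at 1.25 and 3.20 FPKM, at 1.44 and 3.13 FPKM and at 2.64 and 4.52 FPKM. Snx14 had the highest of their differences, 0.90. The ratios of FPKM were 2.56 for Snx14 and 2.18 for Snx19. Snx11, Snx15, Snx16, Snx24 and Snx29 ranged from 1.28 to 6.98 FPKM with ECM1 sufficient and from 2.95 to 8.71 FPKM with ECM1 deficient. All were within 2-fold in FPKM + 1, while the ratio of FPKM was 2.31 for Snx11. Snx20, which binds the adhesion ligand PSGL-1, was lower at 2.08 and 1.55 FPKM, a relative difference of -0.77. Its relative Snx21 was at 0.139 and 0.581 FPKM, under the minimum. Over all 27 sorting nexins kept, 2 were higher and 0 lower, with a median difference of 0.58.

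**Figure D2:**
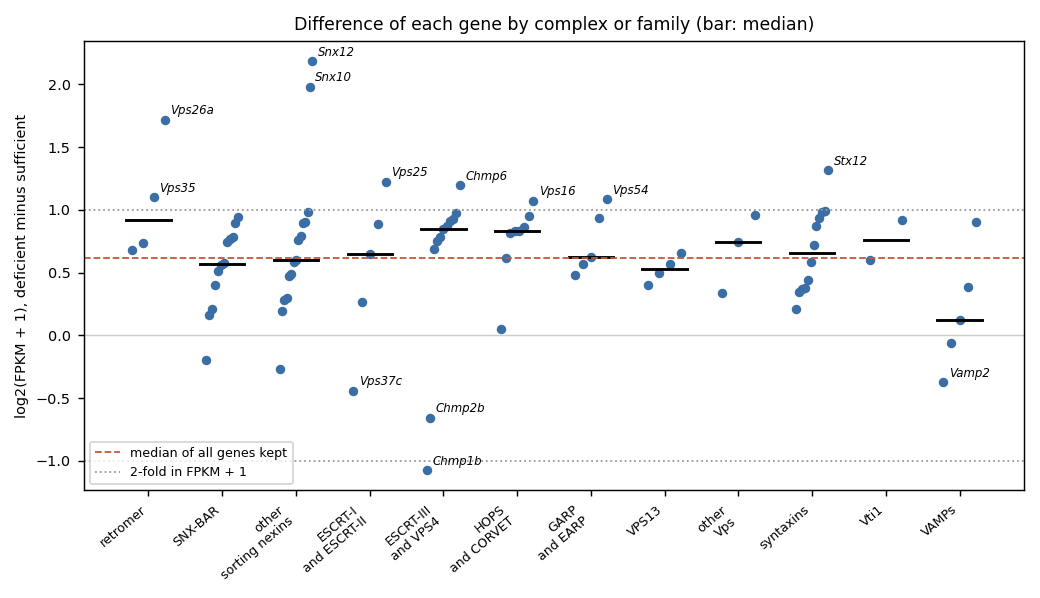
Difference of log2(FPKM + 1), ECM1-deficient minus ECM1-sufficient, of the 86 genes kept, by complex or family, with black bars for medians, a dashed line for the median of all genes kept and dotted lines at 2-fold. Snx12, Snx10 and Vps26a are the highest points, Chmp1b and Chmp2b the lowest, and the VAMPs have the lowest median.

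ESCRT genes had a median difference of 0.82, with 2 higher, 1 lower and 13 within 2-fold. The 3 genes with lower values in the ECM1-deficient library each had a paralog with a larger value there. Upstream, ESCRT-I and ESCRT-II recognise cargo and start the filament. Of ESCRT-II, Vps36 was at 5.87 and 11.7 FPKM and Vps25 at 6.27 and 16.0 FPKM, and Vps25 passed 2-fold with a difference of 1.22. The Vps25 locus overlaps that of Ramp2 on the same strand, a gene with no value here. Of the Vps37 subunits of ESCRT-I, which stand in for each other in the complex, Vps37a was at 2.36 and 4.27 FPKM, Vps37b at 1.72 and 2.27 FPKM and Vps37c at 2.75 and 1.76 FPKM. The order of the 3 therefore turned: Vps37c held 40.3% of their summed FPKM with ECM1 sufficient and 21.2% with ECM1 deficient, and Vps37a 34.5% and 51.4%. All 3 lie under 5 FPKM.

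ESCRT-III proteins polymerise into the filaments that cut the neck of the budding vesicle. Chmp4b, the main filament subunit, was at 42.7 and 81.1 FPKM, Chmp3 at 29.6 and 50.5 FPKM and Chmp2a, which caps and links the filament with Chmp3, at 96.3 and 156 FPKM. Their relative differences, 0.14, -0.02 and -0.09, were all near 0. Chmp6, which joins ESCRT-II to Chmp4, was at 4.54 and 11.7 FPKM and passed 2-fold with a relative difference of 0.51. Chmp5 was at 30.8 and 56.3 FPKM, and Chmp7, which also acts at the nuclear envelope, at 7.14 and 13.9 FPKM. The filament genes thus lay close to the common ratio, with Chmp6 above it.

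The paralogs Chmp2b and Chmp1b went the other way. Chmp2b, on chromosome 16 from 65539133 to 65562697, was at 13.8 and 8.39 FPKM, 1.64-fold lower, with a difference of -0.66 and a relative difference of -1.37. Mutations of its human counterpart are linked to frontotemporal dementia. Chmp1b was at 5.23 and 1.96 FPKM, 2.67-fold lower, with a difference of -1.07 and a relative difference of -1.66. They are the 2 genes of the 86 that were lower relative to the median gene. Chmp1a, the paralog of Chmp1b, was at 5.80 and 12.4 FPKM, a difference of 0.98 that lies just within 2-fold.

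The makeup of both families therefore differed between the libraries. Chmp1a was 52.6% of Chmp1a plus Chmp1b with ECM1 sufficient and 86.3% with ECM1 deficient, the widest shift of the 12 families compared. Chmp2a was 87.5% and 94.9% of Chmp2a plus Chmp2b. Chmp1b is the only one of the 87 genes with 1 exon, and its locus overlaps Gnal on the same strand, which has no value here. Genes with 1 exon had wide differences in this table: of 198 kept, 48 were higher and 46 lower, or 24.2% and 23.2%, and their part in the value of Chmp1b was not tested. Chmp2b has 7 exons and no overlapping protein-coding gene.

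The promoter of Chmp2b is shown as that of the lowest gene with several exons. It holds none of the motifs marked in capitals in the other promoters, on either strand, so no letters are in capitals, and nothing follows from their absence.
Chmp2b, chr16:65562713-65563012, minus strand: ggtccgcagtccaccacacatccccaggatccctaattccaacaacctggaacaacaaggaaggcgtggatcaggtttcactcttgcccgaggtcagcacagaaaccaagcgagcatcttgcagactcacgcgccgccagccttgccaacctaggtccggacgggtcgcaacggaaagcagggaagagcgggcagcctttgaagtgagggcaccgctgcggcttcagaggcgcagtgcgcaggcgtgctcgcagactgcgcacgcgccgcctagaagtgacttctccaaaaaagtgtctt

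Of the ATPases that take ESCRT-III filaments apart, Vps4a was at 5.95 and 12.2 FPKM and Vps4b at 8.69 and 15.7 FPKM. Their relative differences were 0.23 and 0.06. Vps4a held 40.6% of the pair with ECM1 sufficient and 43.8% with ECM1 deficient, so that both ATPases kept a similar part.

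**Figure D3:**
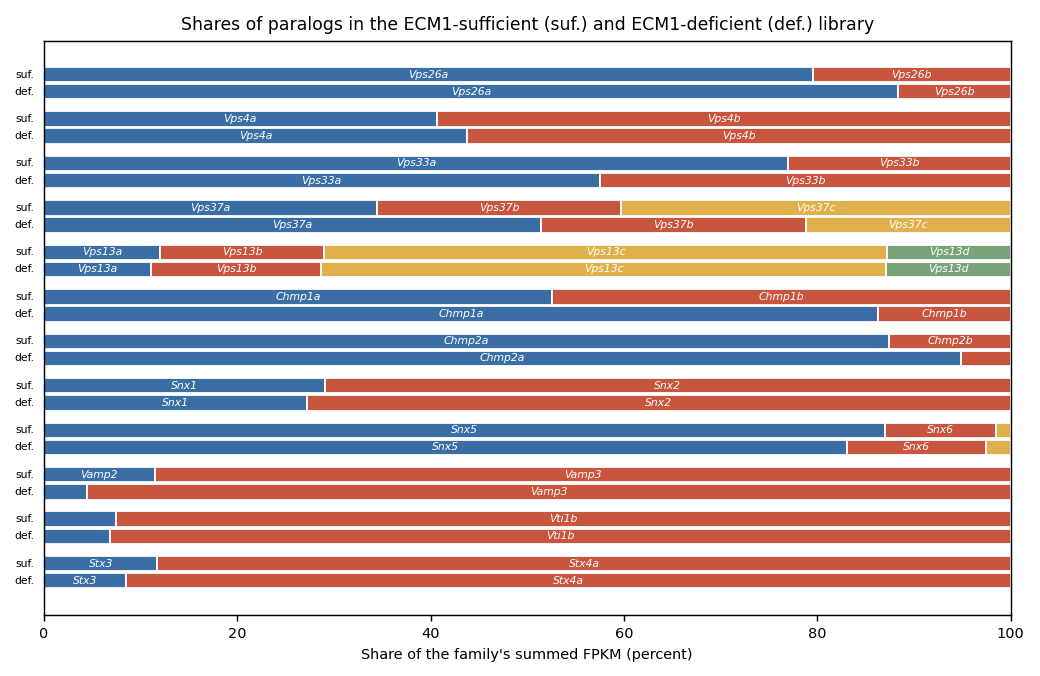
Share (percent) of each paralog in the summed FPKM of its family, with the ECM1-sufficient library (suf.) above the ECM1-deficient library (def.) for 12 families. Bars of Chmp1, Vps33 and Vps37 shift the most, while those of Vps13, Vti1 and Snx1 with Snx2 are nearly alike in both libraries.

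The 20 genes of tethering complexes and other Vps names had larger values in the ECM1-deficient library, as did 8172 of all 9032 genes kept. Of the 20, 2 passed 2-fold, or 10% against 14.8% of all genes kept. Relative to the median gene, 11 were above and 9 below, or 55% above beside 54.3% of all genes kept. HOPS and CORVET, which hold late and early endosomes before fusion, share a core of Vps11, Vps16, Vps18 and Vps33a. Vps16 was at 1.99 and 5.31 FPKM, a difference of 1.07, Vps11 at 4.21 and 9.09 FPKM and Vps18 at 6.05 and 9.80 FPKM. Vps33a, the core protein that clamps SNAREs together, was level at 3.29 and 3.43 FPKM, a relative difference of -0.56. The subunits of the shared core therefore ranged in ratio from 1.04 to 2.66. The Vps16 locus overlaps Pced1a on the opposite strand, which was at 0.405 and 0.811 FPKM.

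The subunits specific to HOPS, Vps39 and Vps41, were at 1.97 and 4.28 FPKM and 9.40 and 17.3 FPKM, and Vps8 of CORVET was at 1.85 and 4.20 FPKM. Vps33b, the paralog of Vps33a that acts outside HOPS, was at 0.983 and 2.54 FPKM, a relative difference of 0.36. Vps33a made up 77.0% of this pair with ECM1 sufficient and 57.5% with ECM1 deficient, at levels under 4 FPKM. The 8 genes, Vps33b counted in, had a median relative difference of 0.26, with 6 above the median gene, or 75% beside 54.3% of all genes kept. Without Vps33b, which passed the minimum in the ECM1-deficient library only, the median was 0.25, with 5 of 7 above.

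GARP, which receives vesicles from endosomes at the Golgi, and EARP, its endosomal variant, share Vps51, Vps52 and Vps53. These were at 2.17 and 3.44 FPKM, at 2.72 and 6.10 FPKM and at 6.09 and 9.51 FPKM. Vps54, found in GARP, was at 1.68 and 4.69 FPKM and passed 2-fold with a difference of 1.08, while Vps50, which takes its place in EARP, was at 2.70 and 4.71 FPKM and near the median gene. The ratios were 2.79 for Vps54 and 1.74 for Vps50.

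The VPS13 proteins, long bridges that carry lipids between membranes, had the lowest SD of differences of the 12 complexes and families, 0.11 on the log2 scale, with 4 genes. Vps13a, Vps13b, Vps13c and Vps13d had ratios of 1.53, 1.70, 1.65 and 1.66, and relative differences between -0.12 and -0.02. Cox6c, at 97.6 and 117 FPKM, overlaps the Vps13b locus on the opposite strand. Vps13c was the most abundant at 7.54 and 12.5 FPKM and made up 58.3% and 58.5% of their summed FPKM. Of the remaining Vps names, Vps45, an SM protein that binds endosomal syntaxins, was at 3.97 and 7.32 FPKM and Vps9d1 at 0.734 and 1.19 FPKM. Vps72, which despite its name is a subunit of chromatin complexes that exchange histone H2A.Z, was at 1.86 and 4.58 FPKM.

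SNARE genes had 1 of 19 past 2-fold, and 0 relative to the median gene. The syntaxins and the VAMPs differed in where they lay, with median differences of 0.65 over 12 syntaxins and 0.12 over 5 VAMPs. All 12 syntaxins and 3 of the VAMPs had a difference above 0, as did 8172 of all 9032 genes kept. Relative to the median gene, 7 of the 12 syntaxins and 1 of the 5 VAMPs were above. That is 58.3% and 20%, beside 54.3% of all genes kept. Stx12, also called syntaxin 13, a Q-SNARE of recycling endosomes, lies on chromosome 4 from 132853501 to 132884509 and was at 10.1 and 26.6 FPKM, with a difference of 1.32 and a relative difference of 0.58. It was the SNARE gene with the highest difference. Stx4a, a Q-SNARE of the plasma membrane, was the most abundant syntaxin at 41.4 and 80.2 FPKM, followed by Stx7 at 32.7 and 42.5 FPKM.

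Other syntaxins of the cell surface were at lower levels. Stx3 was at 5.51 and 7.46 FPKM, Stx2 at 1.63 and 4.19 FPKM and Stx11, a syntaxin of immune cells, at 1.55 and 2.46 FPKM. Stx2 lay just within 2-fold with a difference of 0.98, as did Stx5a, the syntaxin of the Golgi, at 1.47 and 3.93 FPKM with 0.99. Stx18 of the endoplasmic reticulum was at 1.17 and 2.59 FPKM and Stx17, which acts on autophagosomes, at 1.69 and 2.42 FPKM. By the ratio of FPKM, Stx2, Stx5a, Stx16 and Stx18 were more than 2-fold higher, at levels under 5 FPKM where the added 1 lowers the difference.

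The R-SNAREs included both the most abundant gene and some of the lowest differences. Vamp8, the R-SNARE of late endosomes and of regulated secretion, was at 122 and 134 FPKM, a ratio of 1.09 and a relative difference of -0.66. Vamp3, also known as cellubrevin, an R-SNARE of recycling endosomes and phagocytic cups, was at 21.8 and 41.8 FPKM, a relative difference of 0.15. Vamp4 of the trans-Golgi was at 21.4 and 28.2 FPKM. Vamp5 was at 4.23 and 4.01 FPKM, and Vamp2, the synaptic paralog of Vamp3, at 2.82 and 1.95 FPKM, a relative difference of -0.92. Vamp3 was thus the VAMP above the median gene, and the other 4 were below it. Of Vamp2 plus Vamp3, Vamp3 held 88.5% in the ECM1-sufficient and 95.5% in the ECM1-deficient library.

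SNAREs that act in one complex did not share one ratio. The late endosomal complex joins Stx7, Vti1b, Stx8 and Vamp8, which had ratios of 1.30, 1.92, 1.17 and 1.09. Vti1b was at 28.8 and 55.3 FPKM and Stx8 at 9.21 and 10.8 FPKM. In this complex Vti1b was the gene above the median gene, with a relative difference of 0.15, and the other 3 lay between -0.66 and -0.40. The Vti1b locus overlaps Arg2, the mitochondrial arginase gene, on the opposite strand, and Arg2 has no FPKM here. The trans-Golgi complex joins Stx16, Vti1a, Stx6 and Vamp4, with ratios of 2.26, 1.73, 1.90 and 1.32. Its Q-SNAREs, with Stx16 at 1.90 and 4.30 FPKM, Vti1a at 2.33 and 4.05 FPKM and Stx6 at 1.27 and 2.41 FPKM, were at or above the median gene, and its R-SNARE Vamp4 below it. In each complex the VAMP had the lowest ratio, and with 1 library per genotype no test of that order was possible. Vti1b held 92.5% and 93.2% of the 2 Vti1 genes.

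Partner genes outside the naming rule were taken from lists of the same pathways. Of 19 ESCRT partners kept, 2 were higher, or 10.5% against 14.8% of all genes kept, and 0 lower, with a median of 0.78. Tom1, an adaptor for ubiquitinated cargo on endosomes, was at 2.54 and 10.5 FPKM and was the gene of this list higher relative to the median gene, at 1.06. Ist1, an ESCRT-III-like protein, was the lowest at 29.9 and 32.2 FPKM, and Tsg101, the ESCRT-I subunit that binds ubiquitin, was at 7.02 and 13.9 FPKM. Of 22 SNARE partners kept, 2 were higher and 2 lower, with a median of 0.68. That is 9.09% in each direction, against 14.8% higher and 2.17% lower of all genes kept. Nsf, the ATPase that separates spent SNAREs, was at 1.05 and 4.57 FPKM, the highest difference of the list at 1.44.

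Ykt6 and Gosr2 were the lower genes of the SNARE partners. Ykt6, a lipidated R-SNARE of the Golgi and of autophagosomes, was at 24.4 and 5.38 FPKM, 4.53-fold lower with a relative difference of -2.70. Gosr2, a Q-SNARE of the Golgi also called membrin, was at 7.92 and 3.12 FPKM, 2.54-fold lower with -1.76. Ykt6 has 7 exons and Gosr2 6 in the annotation. Their differences, -1.99 and -1.11, were below those of all 19 SNARE genes chosen by name.

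Of 22 partners of retromer, retriever and the actin-organising WASH complex, 7 were higher, or 31.8% against 14.8% of all genes, and 0 lower, with a median of 0.72. Among the 7 are Ccdc22 and Commd5, both of the retriever-associated CCC complex, which passed the 1 FPKM minimum only through the ECM1-deficient library, so that their counting as higher carries no weight. Ccdc22 was at 0.311 and 2.64 FPKM, and Commd5 at 0.0111 and 2.14 FPKM. Commd10, of the same complex, was the lowest at 8.59 and 6.93 FPKM. The retriever subunits that correspond to Vps26 and Vps35 stood in the table under the older symbols Dscr3, with a difference of -0.08, and 9030624J02Rik, with 0.83. Rab7, the small GTPase that recruits both retromer and HOPS, was at 107 and 199 FPKM, a relative difference of 0.11.

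**Figure D4:**
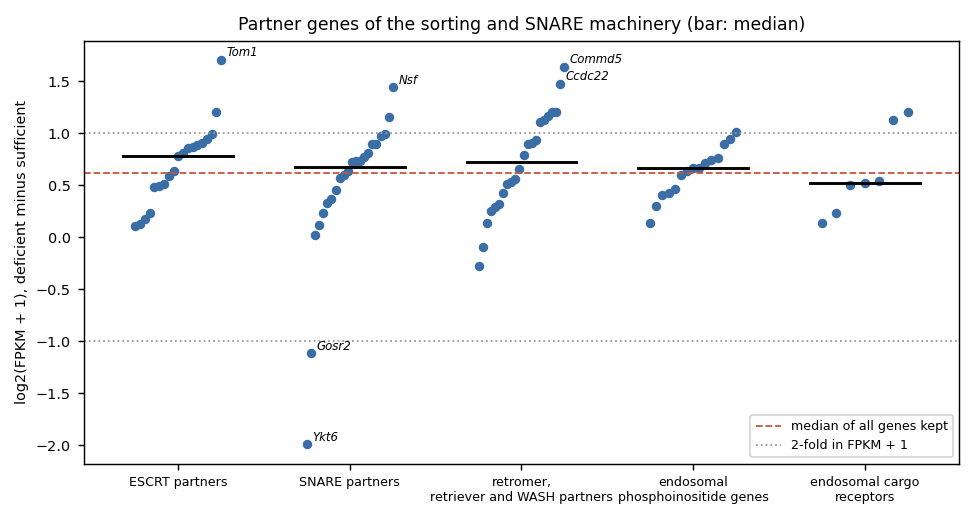
Difference of log2(FPKM + 1), ECM1-deficient minus ECM1-sufficient, of partner genes kept in 5 lists, with black bars for medians, a dashed line for the median of all genes kept and dotted lines at 2-fold. Ykt6 and Gosr2 are the only points below the lower dotted line, and Tom1, Commd5, Ccdc22 and Nsf are the highest.

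The authors' deposited gene ontology table rests on genes higher in the ECM1-deficient library. Every gene of the expression table that it names, 4183 in all, was at least 1.5-fold higher there in FPKM + 1. By that rule 52 of the 87 genes, or 59.8%, were higher, against 47.5% of all 10402 symbols, and 2, Chmp1b and Chmp2b, were at least 1.5-fold lower. The authors' deposited table names 51 of the 52 in at least one term. In it the term endosomal transport held 104 of 212 background genes, a fold enrichment of 2.31, and 30 of the 104 are genes described here. Retrograde transport from endosome to Golgi held 34 of 59 in the authors' deposited table, a fold enrichment of 2.72, with 14 of the genes described here, among them the 4 retromer genes, Snx1, Snx2, Snx6, Stx16 and Vps54. Vesicle fusion held 38 of 82 in the authors' deposited table, a fold enrichment of 2.19, with 16 of the genes described here. These 3 terms were chosen after their values were seen. The background of 23313 genes is larger than the expression table, so that 21.2% of the background was on the authors' list. The fold values are set against that share. In the order given, the 3 terms held 49.1%, 57.6% and 46.3% of their background genes, beside 47.5% of all 10402 symbols. Endosomal transport and vesicle fusion thus lay near the share of the whole expression table.

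Beside 3 like sets of trafficking genes, the sorting and SNARE genes did not stand apart in their median. The median difference was 0.66 over 44 Rab genes kept, 0.78 over 20 COPI and COPII coat genes and 0.87 over 17 genes of the V-ATPase, the proton pump of endosomes and lysosomes. Relative to the median gene, 2 of the 44 Rab genes were higher and 6 lower, and 0 coat genes passed in either direction. Of the 17 V-ATPase genes, 3 were higher and 2 lower. Over all genes kept, 2.45% were higher and 4.77% lower on this scale. These differences between sets were not tested.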

How the data were processed

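RNA of 1 ECM1-sufficient and 1 ECM1-deficient sample of peritoneal macrophages was measured. Libraries were strand-specific and made from poly(A) RNA, per the labels' protocol. Linear FPKM values per gene were deposited by the authors, and the submitters' processing notes name mm9, HISAT2 and StringTie 1.2.3. Coordinates of all 87 genes, however, overlapped the same gene in GENCODE M21, 62 of them identically, so positions are given as GRCm38. The deposited table also held log2(FPKM + 1) columns and a log2 fold change, which the linear values reproduced to within 7.67e-14. The deposited p-value and q-value columns held 1 throughout. The authors' gene ontology table gives a fold ratio of enrichment, per the file headers. No gene had both values under 0.500 FPKM in the table.

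Differences were computed with a pseudocount of 1 over genes that reached 1 FPKM in one library or both, with the 1 symbol on several rows summed (Python 3.11.15, pandas 2.3.3). There was no test. The median ratio, 1.73, was removed symmetrically, by its square root in each library. The calculation was tested on simulated data. Alternatives were pseudocounts of 0.1 and 5, no minimum or 5 FPKM, 2 rescalings, thresholds of 1.5-fold and 4-fold, the highest row per symbol, and, added after the data were seen, gene models with 3 or more exons and the HOPS and CORVET group without Vps33b. Annotated names that match the rule but have no value, 13 in number, were not analysed here. Members and lists were chosen with earlier results of these data known, and motifs after values were seen. Named genes were those past 2-fold on either scale, the 2 highest, 2 lowest and most abundant of each group; the other members are given for completeness. Exons, overlapping genes and transcript lengths came from GENCODE M21, and promoters from RefSeq.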

Additional observations from a re-analysis of the deposited data

How the results depend on the processing

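With 1 library per genotype no library could be left out, and No paired analysis was possible because each genotype had a single sample. A median was taken to have moved where it changed by 0.1 or more on the log2 scale, and a count where it changed by over 1.5 times. Of the 10 genes past 2-fold, 0 changed sign under the settings run on single genes, while some within 2-fold did.

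All genes kept moved with most settings too. A pseudocount of 0.1 gave 26 higher genes, of them 4 ESCRT, 5 SNARE, 7 sorting nexin and 8 tether and other Vps genes, with medians of 0.77 for SNAREs, 0.75 for sorting nexins and 0.82 for tethers. Of all genes 32.6% were then higher, with a median of 0.80. A pseudocount of 5 gave 4 higher and 0 lower, with 0 higher and 0 lower ESCRT genes, 1 higher retromer gene and 0 higher tether genes, and medians of 0.39 for all, 0.65 for ESCRT, 0.30 for SNAREs, 0.71 for retromer, 0.34 for sorting nexins and 0.42 for tethers, while 3.17% of all genes were higher and 0.985% lower, with a median of 0.32. With a minimum of 5 FPKM the SNARE median was 0.39, and 1 tether gene was higher, while the median of the 4492 genes left was 0.74, with 22.4% higher. Without a minimum, and with the highest row per symbol, no count or median of these groups moved.

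Relative to the median ratio, 2 were higher and 2 lower. ESCRT then had 0 higher and 2 lower, and SNAREs, retromer and tethers had 0 higher each. The medians were 0.025 for all, 0.072 for ESCRT, 0.0058 for SNAREs, 0.21 for retromer, 0.046 for tethers and -0.0090 for sorting nexins, which turned sign, and 0.034 for all genes kept. After rescaling both libraries to the same summed FPKM, 3 were higher, Snx12, Snx10 and Vps26a, and 2 lower. There ESCRT had 0 higher and 2 lower, retromer had 1 higher, and SNAREs and tethers had 0. The medians were 0.31 for all, 0.39 for ESCRT, 0.26 for SNAREs, 0.50 for retromer, 0.25 for sorting nexins and 0.32 for tethers, beside 0.29 over all genes kept, of which 4.22% were higher and 3.28% lower.

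At 1.5-fold, 52 were higher and 2 lower, with 12 and 2 among ESCRT genes and 10 SNARE, 4 retromer, 13 sorting nexin and 13 tether genes higher, beside 53.7% of all genes higher and 3.68% lower. At 4-fold, 1 was higher, a sorting nexin, and 0 lower, with 0 ESCRT genes in either direction and 0 SNARE, retromer and tether genes higher, beside 1.21% and 0.797% of all genes. Over gene models with 3 or more exons, a setting chosen after seeing the data, 0 were lower, since Chmp1b has 1 exon, beside 1.22% of such genes.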

Other observations

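Genes of endosomal phosphoinositides and of recycled receptors lay on both sides of the common ratio. Of 15 phosphoinositide genes kept, 1 was higher, or 6.67% against 14.8% of all genes kept, and 0 lower. Their median difference was 0.66, and on the relative scale 0 reached 2-fold. Pik3c3, the lipid kinase also called Vps34, whose product binds the PX domains of sorting nexins, was the highest at 2.59 and 6.26 FPKM, and its partner Pik3r4 the lowest at 0.823 and 1.00 FPKM. Of 7 receptors and transporters that endosomes sort, 2 were higher, or 28.6% against 14.8% of all genes kept, and 0 lower. Their ratios ranged from 1.10 to 2.33. M6pr, the cation-dependent mannose 6-phosphate receptor that delivers lysosomal enzymes, was at 28.4 and 63.2 FPKM and Sirpa, an inhibitory receptor of macrophages, the highest of the list at 36.7 and 85.5 FPKM, while Igf2r, the larger mannose 6-phosphate receptor, was at 19.0 and 27.7 FPKM and Lrp1, a scavenging receptor, the lowest at 18.8 and 20.7 FPKM.

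Across the 86 sorting and SNARE genes kept, the difference had a Spearman correlation of -0.20 with the length of the longest annotated transcript, 0.16 with the number of exons and 0.01 with the level in the ECM1-sufficient library. Over all genes kept the same correlations were -0.04, 0.12 and -0.01. They are descriptions over genes of the same 2 libraries, and genes are not replicates.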
